A study of Homo sapiens with 16 samples.

Results

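The genes described here are 10 named genes around the transcriptional coactivator YAP: the coactivators YAP1 and WWTR1 (the gene of TAZ), the DNA-binding factors TEAD1 and TEAD4, the upstream regulators LATS2 and AJUBA, and the well-known targets CTGF, CYR61, ANKRD1 and AMOTL2. They were chosen by symbol among the 39007 gene symbols of the expression table, CTGF and CYR61 under their older names (now CCN2 and CCN1). These genes and the lists used below were chosen with earlier results of these data known. The shares called, set beside those of all tested genes, are therefore descriptions. All 10 genes were present and all 10 had a mean above 1 CPM (counts scaled to the library total) over the libraries, the minimum for a test.

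The study derived the gemcitabine-resistant line GRC1 from T24, an established human bladder cancer cell line, by repeated exposure to gemcitabine, a nucleoside analogue that blocks DNA synthesis. RNA was sequenced from 16 libraries, 4 of parental phase P0 (T24 cells not yet selected), 4 of early phase P3, 4 of intermediate phase P7 and 4 of late phase P15. All 16 sample titles carry the letters NT, which the labels do not define. Apart from the replicate number, each title ends in S and a number, and some of these recur in libraries of different phases. The labels do not define them either, and no term for them was fitted. The paper does not say whether gemcitabine was present when RNA was taken. All cells were grown in the same serum-containing medium, GRC1 is 1 line selected once, and no source used here says whether the 4 libraries of a phase came from separate cultures, so that the p-values measure the spread between these libraries, which may be technical. The question behind the phases is how expression changes step by step as resistance is acquired.

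In the Hippo pathway, the kinases encoded by STK3 and STK4 activate the LATS kinases, which phosphorylate YAP and TAZ and keep them out of the nucleus. Unphosphorylated YAP and TAZ enter the nucleus, bind TEAD factors and switch on genes of growth, adhesion and the cytoskeleton, among them CTGF, CYR61 and ANKRD1. LATS2 and AMOTL2 are both inhibitors and targets of YAP, and the activity of YAP is set mainly on the protein, which RNA levels do not measure.

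Levels are given as log2 of CPM plus 1, as deposited, in the order of replicates 1 to 4. The steps between low values put the depth at 33.8 to 50.2 M counts per library, so that 1 count was 0.0199 to 0.0296 CPM. A gene at the median differed by 0.06 to 0.1 (log2) between 2 libraries of the same phase and by 0.18 to 0.58 between libraries of different phases. Comparisons used limma over all 13249 tested genes, and a gene passed at a Benjamini-Hochberg adjusted p below 0.05. A gene was called 2-fold changed if, in addition, its log2 fold change was at least 1 in either direction. Overlap of phases, or its absence, is given below as a description. The share of all tested genes whose phases lie apart in this way was not counted. The epithelial markers KRT7 and KRT8 fell from 9.90 ± 0.06 and 9.22 ± 0.02 at P0 to 3.64 ± 0.07 and 6.16 ± 0.04 at P15 (SD, n = 4), KRT18 was 8.88 ± 0.03 at P0 and 9.31 ± 0.07 at P15, and CDH1 averaged 0.0255 CPM over the 16 libraries. The 9 urothelial markers summed to 77.4 to 132 CPM per library at P0 to P7 and to 20.5 to 23.4 CPM at P15. The defining leukocyte marker PTPRC was at or near 0 in every phase, and the 6 leukocyte markers summed to at most 8.84 CPM, nearly all of it CD14. The 5 endothelial markers summed to 6.05 to 7.95 CPM at P0, mostly CDH5 (5.69 CPM), and to at most 1.09 CPM later, and the part of these markers in the differences between phases was not tested. The 6 fibroblast markers summed to 1.68 to 5.77 CPM per library at P0 to P7 and to 44 to 49.2 CPM at P15, almost all of it COL1A1 and COL3A1, while DCN was at 0 in all 4 P15 libraries. In bulk RNA, fewer cells of a type and less RNA per cell cannot be told apart.

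The targets rose at P3. Between P3 and P0, 4 of the 10 genes were called 2-fold higher (CTGF, CYR61, AMOTL2 and ANKRD1) and 0 were called 2-fold lower, where 1.95% of all tested genes were called higher, 2.51% lower and 4.47% in either direction. LATS2 lay just under the fold threshold, at 0.98. At an adjusted p below 0.05 alone, 8 of the 10 were higher and 2 lower at P3, where 31.4% of all tested genes were higher and 37.3% lower (68.7% together). The median log2 fold change of the 10 genes was 0.71, and that of all tested genes was -0.02.

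**Figure D1:**
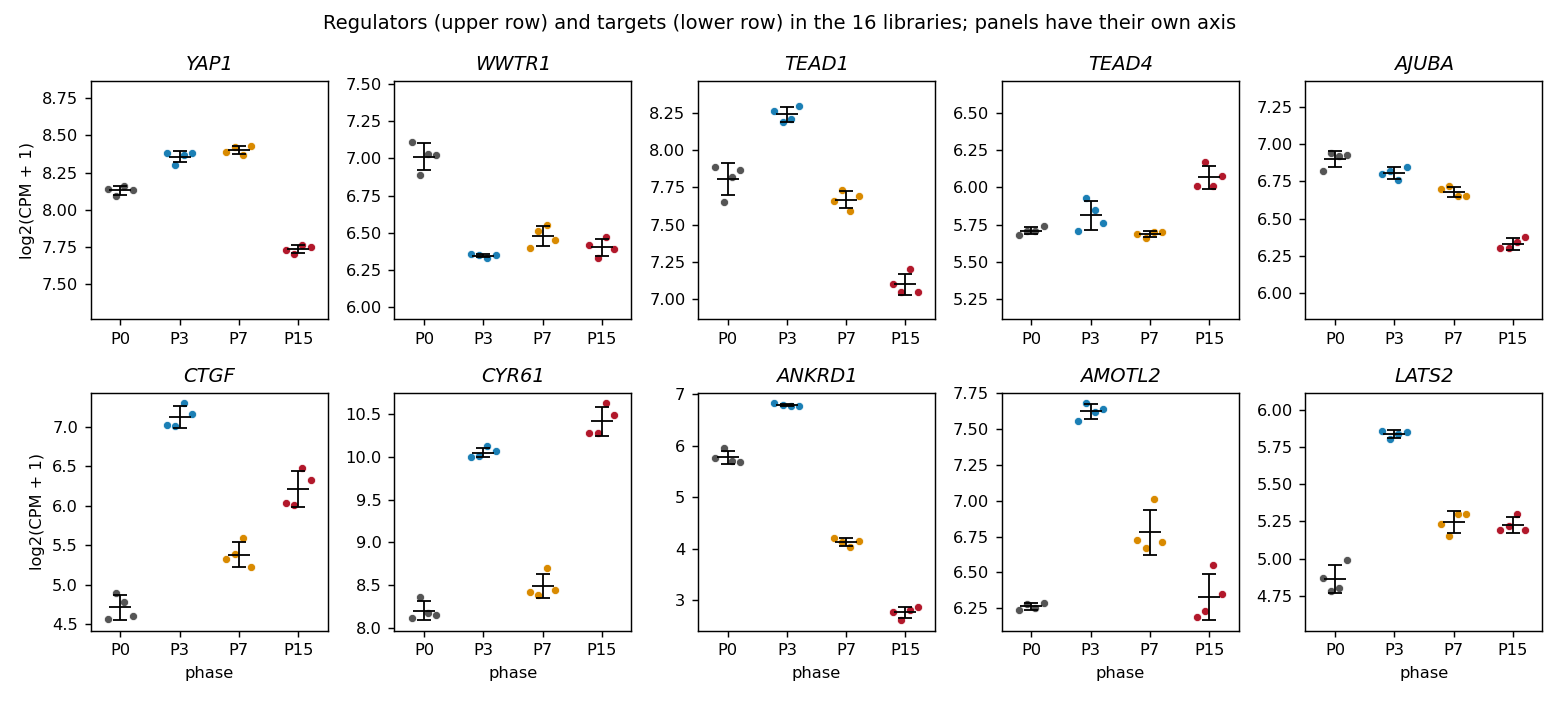
Level (vertical axis, log2 of CPM plus 1) of each gene in the 16 libraries by phase (horizontal axis), with 1 point per library and the mean with its SD per phase. CTGF, AMOTL2 and LATS2 peaked at P3, CYR61 was high at P3 and P15, and ANKRD1 fell from 6.79 at P3 to 2.77 at P15.

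YAP1, the coactivator itself, moved little by comparison with its targets. Its levels were 8.14, 8.09, 8.16 and 8.13 at P0, 8.38, 8.30, 8.37 and 8.38 at P3, 8.39, 8.42, 8.37 and 8.43 at P7, and 7.73, 7.70, 7.76 and 7.75 at P15. The P15 libraries lay below all others, the P0 libraries below those of P3 and P7, and the ranges of P3 and P7 overlapped. YAP1 rose by a log2 fold change of 0.23 between P0 and P3 (standard error 0.03, adjusted p = 1.7e-07, limma) and fell by 0.67 between P7 and P15 (standard error 0.03, adjusted p = 7e-17, limma). The difference of 0.04 between P7 and P3 did not pass (95% interval -0.01 to 0.10, adjusted p = 0.18, limma). P15 ended below P0, with a log2 fold change of -0.39 (adjusted p = 2.9e-12, limma). YAP1 lies on chromosome 11 of GRCh38, from 102110447 to 102233424 on the plus strand, and its exons share 11 and 628 bases with 2 long noncoding RNAs of the opposite strand.

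WWTR1, which encodes the YAP paralogue TAZ, went the other way at the first step. Its levels were 7.11, 6.89, 7.03 and 7.02 at P0, 6.36, 6.35, 6.33 and 6.35 at P3, 6.40, 6.51, 6.55 and 6.45 at P7, and 6.42, 6.33, 6.47 and 6.39 at P15. The 4 P0 libraries stood above the other 12, whose phases lay close together. WWTR1 fell by 0.67 between P0 and P3 (standard error 0.04, adjusted p = 1.3e-12, limma), and P15 was 0.61 below P0 on the log2 scale (log2 fold change -0.61, adjusted p = 1.5e-12, limma). Between P15 and P7 the difference was -0.07 (95% interval -0.16 to 0.01, adjusted p = 0.099, limma). This last comparison sits at the threshold, since WWTR1 passed as lower without P7 replicate 1 (-0.10, adjusted p = 0.04, limma) or without P15 replicate 3 (-0.10, adjusted p = 0.042, limma), and with each library shifted to the same median (-0.12, adjusted p = 0.012, limma). WWTR1 (chromosome 3, 149517235 to 149736714, minus strand) shares 756 exon bases with WWTR1-AS1, which stood at 0.2 to 0.434 CPM in the 4 phases.

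Per kilobase of annotated exon, a scale on which genes can be set side by side, YAP1 stood at 44.2 ± 0.90 CPM per kb at P0 and 33.6 ± 0.62 at P15, and WWTR1 at 15.4 ± 0.96 and 10.0 ± 0.41 (SD, n = 4). With the length of the canonical transcript in place of all annotated exons, the P0 values were 51.7 for YAP1 and 25.5 for WWTR1. YAP1 was the more abundant transcript of the pair on both lengths.

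Among the TEAD factors, which carry the DNA-binding domain that YAP and TAZ lack, TEAD1 fell and TEAD4 rose at P15. TEAD1 had levels of 7.89, 7.65, 7.82 and 7.87 at P0, 8.26, 8.19, 8.21 and 8.30 at P3, 7.66, 7.73, 7.59 and 7.69 at P7, and 7.10, 7.05, 7.20 and 7.05 at P15. The P3 libraries were the highest and the P15 libraries the lowest, with no overlap with any other phase, while P0 and P7 overlapped. TEAD1 rose by 0.43 between P0 and P3 (standard error 0.05, adjusted p = 1.1e-08, limma) and fell by 0.57 at each of the next 2 steps (adjusted p = 1.9e-10 for P7 against P3 and 2.3e-11 for P15 against P7, limma). From P3 to P15 this made a log2 fold change of -1.14 (adjusted p = 1.9e-17, limma).

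TEAD4 had levels of 5.68, 5.71, 5.71 and 5.74 at P0, 5.71, 5.93, 5.85 and 5.76 at P3, 5.69, 5.66, 5.70 and 5.70 at P7, and 6.01, 6.17, 6.01 and 6.08 at P15. All 4 P15 libraries lay above the other 12. TEAD4 rose by 0.38 between P7 and P15 (standard error 0.04, adjusted p = 2.5e-08, limma). Its difference of 0.10 between P3 and P0 (adjusted p = 0.045, limma) did not hold without P3 replicate 2, where it was 0.06 (adjusted p = 0.21, limma), nor without P3 replicate 3 or any 1 of P0 replicates 1 to 3. The fall of 0.12 at P7 against P3 (adjusted p = 0.019, limma) was likewise lost without P3 replicate 2 (-0.09, adjusted p = 0.1, limma) or without P3 replicate 3 (-0.11, adjusted p = 0.056, limma).

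TEAD2 and TEAD3, the paralogues, complete the family. TEAD2 was 4.13 ± 0.09 at P0, 2.87 ± 0.07 at P3, 3.44 ± 0.17 at P7 and 5.14 ± 0.06 at P15 (SD, n = 4), lowest at P3 and highest at P15, where TEAD1 was highest and lowest. It fell 2-fold between P0 and P3 (log2 fold change -1.26, adjusted p = 2e-13, limma) and rose 2-fold between P7 and P15 (1.70, adjusted p = 8e-17, limma). Against P0, the P15 difference of 1.01 was at the fold threshold and fell below it without P0 replicate 1, P0 replicate 4 or P15 replicate 1. TEAD2 shares 319 exon bases with CD37 of the opposite strand, which was 0.266 CPM at P0 and 3.71 CPM at P15 beside 16.5 and 34.3 CPM of TEAD2, and the part of these shared bases in the TEAD2 difference was not tested. TEAD3 was 4.39 ± 0.08 at P0 and 4.24 ± 0.01 at P15, a log2 fold change of -0.14 (adjusted p = 0.014, limma).

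**Figure D2:**
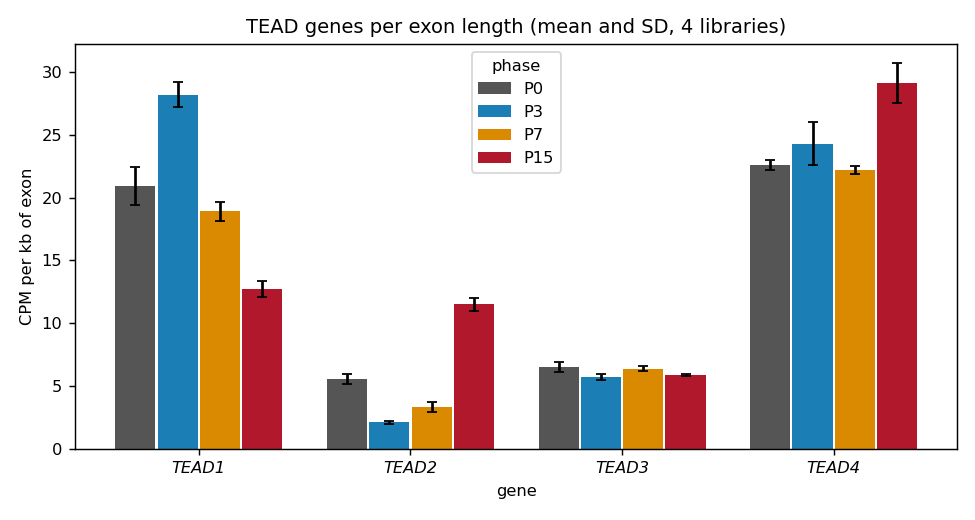
Level of the 4 TEAD genes per exon length (vertical axis, CPM per kb of annotated exon), with 1 bar per phase for the mean of 4 libraries and the SD as error bar. TEAD1 fell from 28.2 at P3 to 12.7 at P15, TEAD2 and TEAD4 were highest at P15 and TEAD3 stayed between 5.70 and 6.54.

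On the scale per kilobase of exon, TEAD1 stood at 20.9 ± 1.5 CPM per kb at P0, 28.2 ± 0.98 at P3, 18.9 ± 0.77 at P7 and 12.7 ± 0.64 at P15. TEAD4 stood at 22.6 ± 0.39, 24.3 ± 1.7, 22.2 ± 0.30 and 29.1 ± 1.6 (SD, n = 4). TEAD4 was the higher of these 2 at P0 (by about the SD of TEAD1), P7 and P15, and TEAD1 at P3. With the canonical transcript length the pair was level at P3 (32.0 for TEAD1 and 32.3 for TEAD4), while TEAD4 was higher at P0 (30.0 against 23.7), P7 (29.6 against 21.5) and P15 (38.7 against 14.5). TEAD2 reached 11.5 ± 0.49 at P15, close to TEAD1 in the same libraries, and their order depended on the length used (15.8 for TEAD2 and 14.5 for TEAD1 with the canonical transcripts).

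Of the vestigial-like cofactors, which compete with YAP for TEAD or assist it, VGLL3 and VGLL4 were tested and VGLL2 was at 0 in all 16 libraries. VGLL1 was not found among the gene symbols, so its level is unknown. VGLL3 fell from 3.63 ± 0.11 at P0 to 1.82 ± 0.10 at P15 (log2 fold change -1.81, adjusted p = 2.4e-17, limma), with a maximum of 4.39 ± 0.06 at P3. VGLL4, the member that opposes YAP, was highest at P7 (5.68 ± 0.06) and lowest at P15 (4.73 ± 0.08). Over the 6 tested TEAD and VGLL genes, 2 were higher and 4 lower at P15 than at P0, beside 45.3% and 40.9% of all tested genes. TEAD2 was called 2-fold higher and VGLL3 2-fold lower, beside 23.6% of all tested genes called in either direction, a share near that background for 6 genes. Their median log2 fold change was -0.19, beside 0.04 for all tested genes.

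LATS2, the kinase that phosphorylates YAP and is itself a YAP target, rose at P3 and fell at P7, as CTGF, CYR61, ANKRD1 and AMOTL2 did, but was level from P7 to P15. Its levels lay between 4.78 and 4.99 at P0, 5.80 and 5.86 at P3, 5.15 and 5.30 at P7, and 5.19 and 5.30 at P15. The P3 libraries were above and the P0 libraries below all others, and P7 and P15 overlapped. LATS2 rose by 0.98 between P0 and P3 (standard error 0.05, adjusted p = 1e-14, limma), a 1.97-fold change, and fell by 0.59 between P3 and P7 (adjusted p = 2.8e-10, limma). Its rise at P3 reached 1.02, and the 2-fold call, without P0 replicate 4. P15 and P7 differed by -0.02 (95% interval -0.12 to 0.08, adjusted p = 0.7, limma). Its paralogue LATS1 was 5.38 ± 0.12 at P0 and 5.36 ± 0.07 at P3 (adjusted p = 0.85, limma) and rose at the last step, to 5.70 ± 0.09 at P15 (0.44 against P7, adjusted p = 5.3e-08, limma).

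AJUBA encodes a LIM-domain adaptor that holds LATS at cell junctions. Its levels lay between 6.82 and 6.94 at P0, 6.76 and 6.85 at P3, 6.65 and 6.72 at P7, and 6.30 and 6.38 at P15. The phase means stepped down in the order of selection, with an overlap between P0 and P3 alone. The first step of -0.09 (adjusted p = 0.017, limma) was lost without P0 replicate 4 (adjusted p = 0.05, limma) or P3 replicate 3 (adjusted p = 0.065, limma), while the last, -0.35 against P7, had an adjusted p of 1e-09 (limma). The related adaptor LIMD1 went up instead, from 5.31 ± 0.07 at P0 to 5.92 ± 0.07 at P15 (0.61, adjusted p = 3e-12, limma), and WTIP rose to 4.59 ± 0.07 at P3 before it fell to 3.23 ± 0.17 at P15. LIMD1 shares 3150 exon bases with LIMD1-AS1, which stood at 0.0416 CPM at P0 and 0.348 CPM at P15.

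The secreted matricellular proteins CTGF and CYR61, the targets most used as a readout of YAP, showed the largest rises at P3 among the 10 genes. CTGF (chromosome 6, 131948176 to 131951372, minus strand) had levels of 4.56, 4.90, 4.78 and 4.60 at P0, 7.03, 7.01, 7.30 and 7.17 at P3, 5.32, 5.39, 5.59 and 5.23 at P7, and 6.04, 6.01, 6.48 and 6.33 at P15. No 2 phases overlapped, and their order from high to low was P3, P15, P7 and P0. CTGF rose by 2.42 between P0 and P3 (standard error 0.09, 5.34-fold, adjusted p = 9.6e-17, limma), fell by 1.74 at P7 (adjusted p = 1.5e-13, limma) and rose again by 0.83 at P15 (adjusted p = 1.1e-08, limma). The long noncoding RNA LINC01013, which shares 278 exon bases with it on the opposite strand, did not exceed a mean of 0.0391 CPM in any phase. Replicate 3 of P3, the highest P3 library for CTGF, also held COL3A1 at 1.61 where the other 3 had at most 0.08. Without this library the P3 rise of CTGF was 2.36 (adjusted p = 3.2e-15, limma).

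CYR61 (chromosome 1, 85580761 to 85584589, plus strand) had levels of 8.12, 8.36, 8.18 and 8.15 at P0, 10.00, 10.01, 10.12 and 10.06 at P3, 8.42, 8.39, 8.70 and 8.45 at P7, and 10.27, 10.28, 10.62 and 10.48 at P15. Here too no 2 phases overlapped, but P15 and not P3 was the highest. P15 exceeded P3 by 0.36 (adjusted p = 2.8e-05, limma), a difference that shrank to 0.17 after quantile normalization (adjusted p = 0.048, limma). The gene rose by 1.85 at P3 (standard error 0.07, 3.59-fold, adjusted p = 4.6e-17, limma), fell by 1.56 at P7 (adjusted p = 3.5e-15, limma) and rose by 1.92 at P15 (standard error 0.07, 3.79-fold, adjusted p = 2e-18, limma). At P15 it was the most abundant of the 10 transcripts per length, at 370 ± 44 CPM per kb of exon (SD, n = 4), and CTGF stood at 31.6 ± 5.1.

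NOV, the third tested gene of the CCN family, to which CTGF and CYR61 belong, did not share this course. It was 4.27 ± 0.09 at P0, 3.39 ± 0.05 at P3, 4.5 ± 0.08 at P7 and 1.21 ± 0.29 at P15 (SD, n = 4). At P3, where CTGF peaked, NOV was below its P0 and P7 levels, and it was lowest at P15. It fell by 3.06 on the log2 scale between P0 and P15 (adjusted p = 2.5e-19, limma). WISP1, WISP2 and WISP3 had means of at most 0.0814 CPM over the 16 libraries and were not tested.

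ANKRD1, a nuclear ankyrin-repeat cofactor known from stressed muscle, rose with CTGF at P3 and then parted from it. Its levels were 5.76, 5.95, 5.71 and 5.68 at P0, 6.82, 6.79, 6.78 and 6.78 at P3, 4.21, 4.14, 4.04 and 4.15 at P7, and 2.77, 2.62, 2.81 and 2.87 at P15. The phases were fully apart, in the order P3, P0, P7 and P15. ANKRD1 rose by 1.02 at P3 (standard error 0.06, adjusted p = 2.4e-13, limma), a 2-fold call that sat at the threshold and was 0.99 without P0 replicate 4 or after quantile normalization, and was also lost without P0 replicate 3. It fell by 2.66 at P7 (standard error 0.06, 6.31-fold, adjusted p = 8.5e-21, limma) and by a further 1.37 at P15 (adjusted p = 1e-16, limma). P15 lay 3.01 below P0 (log2 fold change -3.01, 8.04-fold, adjusted p = 1.4e-23, limma), whereas CYR61 and CTGF were 2.21 and 1.5 above it (adjusted p = 1.3e-19 and 1.6e-13, limma).

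AMOTL2, an angiomotin that tethers YAP at junctions, had levels of 6.24, 6.28, 6.25 and 6.29 at P0, 7.56, 7.68, 7.62 and 7.64 at P3, 6.73, 6.67, 7.01 and 6.71 at P7, and 6.19, 6.23, 6.55 and 6.35 at P15. The P3 libraries were highest, P7 was intermediate and P15 overlapped with P0. AMOTL2 rose by 1.36 at P3 (standard error 0.06, 2.57-fold, adjusted p = 5.2e-15, limma) and fell by 0.84 at P7 and by 0.45 at P15 (adjusted p = 9.2e-11 and 6.5e-07, limma). P15 and P0 differed by 0.06 (95% interval -0.07 to 0.20, adjusted p = 0.35, limma), and by -0.01 without P15 replicate 3.

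The other 2 angiomotins changed at the last step in opposite directions. AMOT was 3.66 ± 0.15 at P0, 2.80 ± 0.08 at P3, 3.04 ± 0.19 at P7 and 5.25 ± 0.06 at P15 (SD, n = 4). AMOTL1 was 6.87 ± 0.09, 6.82 ± 0.03, 6.84 ± 0.05 and 4.34 ± 0.07, with the fall at the last step. Between P7 and P15, AMOT rose by 2.21 (adjusted p = 7.7e-18, limma) and AMOTL1 fell by 2.50 (adjusted p = 1.2e-24, limma). Per kilobase of exon, AMOTL1 was the more abundant of these 2 at P0 (11.6 ± 0.70 against 1.37 ± 0.15 CPM per kb) and AMOT at P15 (4.35 ± 0.18 against 1.92 ± 0.098).

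**Figure D3:**
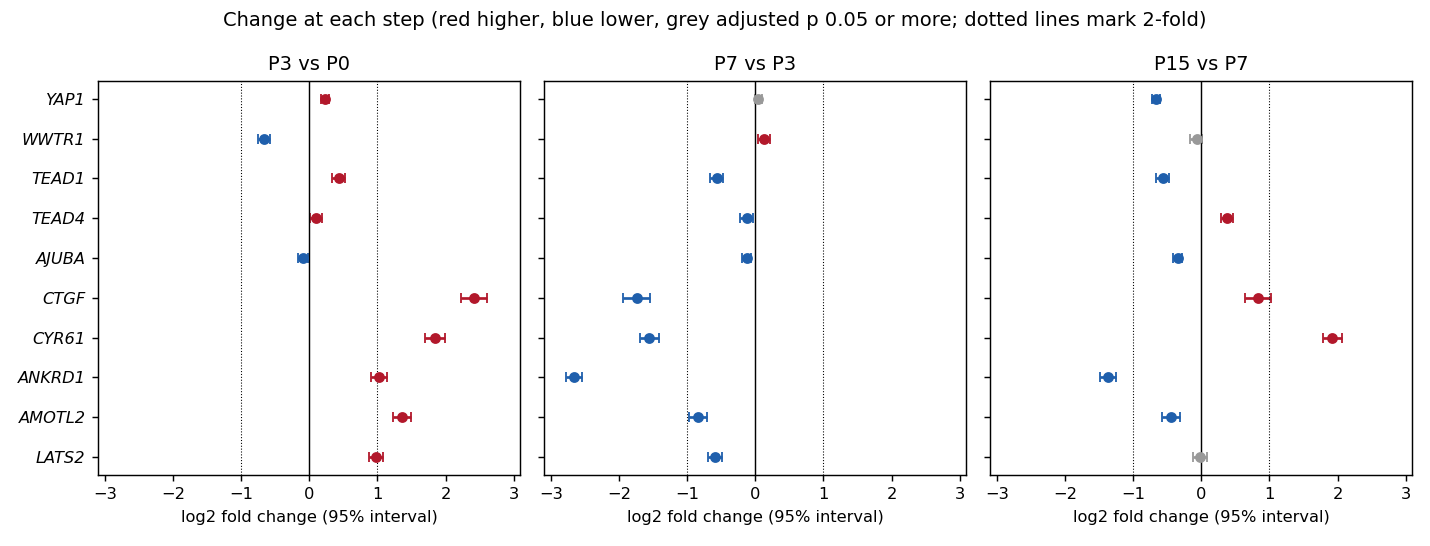
Log2 fold change at each step of the selection (horizontal axis, with its 95% interval) for the 10 genes, with red for higher, blue for lower and grey for an adjusted p of 0.05 or more. CTGF, CYR61, ANKRD1 and AMOTL2 lay to the right at P3 against P0 and to the left at P7 against P3, and at P15 against P7 CYR61 lay at 1.92 and ANKRD1 at -1.37.

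The step from P3 to P7 lowered most of the genes. Of the 10, 3 were called 2-fold lower (CTGF, CYR61 and ANKRD1) and 0 higher, beside 0.845% of all tested genes called lower and 0.996% higher (1.84% together). At an adjusted p below 0.05 alone, 8 were lower and 1 (WWTR1, 0.13, adjusted p = 0.011, limma) was higher, beside 28% of all genes lower and 30.3% higher (58.2% together), and their median was -0.58 beside 0.01. At the step from P7 to P15, CYR61 was called 2-fold higher and ANKRD1 2-fold lower, beside 13.4% of all tested genes called higher and 12.1% lower (25.5% together), so that the share called was near that background. At an adjusted p below 0.05 alone, 3 were higher and 5 lower at this step, beside 46.3% and 40.1% of all genes (86.4% together), again near the background. Between P15 and P0, 3 of the 10 were called (CYR61 and CTGF higher, ANKRD1 lower), beside 12.2% of all tested genes called higher and 11.5% lower (23.6% together), a share near that background, and 4 were higher and 5 lower at an adjusted p below 0.05 alone, beside 45.3% and 40.9% (86.2% together). Between P7 and P0 the called gene was ANKRD1 (-1.64, adjusted p = 3.8e-17, limma), beside 1.52% of all genes called lower and 1.86% higher (3.37% together). At an adjusted p below 0.05 alone, 5 were higher and 4 lower at P7 than at P0, beside 27.9% and 34.2% (62.1% together), and CTGF was still 0.67 and AMOTL2 0.51 above P0 (adjusted p = 1.1e-06 and 2.4e-07, limma). Between P15 and P3, TEAD1, ANKRD1 and AMOTL2 were called lower, beside 12.2% of all genes called lower and 15% higher (27.1% together), and CTGF at -0.91 reached -1 and the call without P15 replicate 3. At an adjusted p below 0.05 alone, 2 were higher and 7 lower at P15 than at P3, beside 46.1% and 41.1% (87.2% together). The comparisons share libraries and are not independent of each other.

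By phase, TEAD1, LATS2, CTGF, ANKRD1 and AMOTL2 were higher at P3 than at each other phase (adjusted p below 0.05 in all 3 comparisons), 5 of 10 genes beside 10.3% of all tested genes. WWTR1 and AJUBA were highest at P0 in this sense, beside 10.8% of all genes, and TEAD4 and CYR61 at P15, beside 37.2%. At P15, YAP1, TEAD1, ANKRD1 and AJUBA were lower than at each other phase, beside 32.3% of all genes. At P0, LATS2, CTGF and CYR61 were, beside 8.91%. The P7 phase was highest for 0 of the 10 genes in this sense, beside 7.43% of all genes.

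The promoters of 7 of the 10 genes were found in the RefSeq table (GRCh38.p14), with 10 windows of 250 bases before the transcript start, while TEAD1, TEAD4 and CYR61 had no entry. They were searched on both strands for the TEAD motif GGAATG, the AP-1 motif TGANTCA and the CArG box of serum response factor. Windows of the 3 genes called 2-fold higher at P3 that had an entry are shown 5′ to 3′ on the gene's strand. Of the 2 windows of AMOTL2 the second is shown, and the first held no TEAD motif. Every TEAD motif (GGAATG, or CATTCC where it lies on the other strand) and AP-1 motif is in capitals.
CTGF, chr6:131951373-131951622, minus strand: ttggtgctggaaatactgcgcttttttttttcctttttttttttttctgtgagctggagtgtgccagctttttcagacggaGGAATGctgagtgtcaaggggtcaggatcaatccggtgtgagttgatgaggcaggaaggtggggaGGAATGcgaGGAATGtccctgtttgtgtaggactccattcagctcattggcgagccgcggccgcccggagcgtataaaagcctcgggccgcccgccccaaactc
ANKRD1, chr10:90921088-90921337, minus strand: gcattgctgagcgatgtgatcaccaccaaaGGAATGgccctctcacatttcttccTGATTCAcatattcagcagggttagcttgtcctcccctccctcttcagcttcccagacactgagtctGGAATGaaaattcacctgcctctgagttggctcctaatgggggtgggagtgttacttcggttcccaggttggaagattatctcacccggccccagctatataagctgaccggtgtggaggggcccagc
AMOTL2, second start, chr3:134374448-134374697, minus strand: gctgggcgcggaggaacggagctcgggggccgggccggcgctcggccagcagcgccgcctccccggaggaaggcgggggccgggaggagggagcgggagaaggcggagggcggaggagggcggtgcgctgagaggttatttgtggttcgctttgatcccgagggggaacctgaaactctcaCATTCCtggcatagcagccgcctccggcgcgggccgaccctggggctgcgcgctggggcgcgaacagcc

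CTGF held 3 TEAD motifs, beginning 169, 104 and 95 bases before the start, the last 2 side by side. ANKRD1 held 2, at 220 and 128 bases, with a match to TGANTCA (N for any base, here T) between them at 195 bases. Of the 34943 windows of the table, 11.9% held at least 1 TEAD motif, 0.942% at least 2 and 0.083% (29 windows) at least 3. AMOTL2 held 1 before its second start (69 bases), AJUBA 1 before its second start (59 bases) and YAP1 1 (162 bases), and the windows of WWTR1 and LATS2 held none. In all, 5 of the 7 genes with a window held the motif, AMOTL2 and AJUBA in 1 of their 2 windows. Per window this was 5 of the 10, beside the 11.9% of all windows. Counts per gene are not on the scale of the shares of all windows, which are per window. The AP-1 motif occurred in 1 of the 7, ANKRD1, and in 6.59% of all windows, and the CArG box in 0 of the 7 and in 1.16% of all windows. No matches overlapped in these windows. CTGF and ANKRD1, which held the most TEAD motifs, both rose at P3 and lay on opposite sides of P0 at P15. A match of letters is not evidence of binding, and no binding was measured here.

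The wider group of YAP and TAZ targets was read with a published list of 22 genes, all of them tested, of which 5 (CTGF, CYR61, ANKRD1, AMOTL2 and LATS2) are among the 10 genes above. All counts and medians of the list include these 5, so they repeat in part the values given above. At P3 against P0, 17 of the 22 were higher, 2 lower and 3 did not pass, and 9 were called 2-fold higher, beside 31.4% of all tested genes higher, 37.3% lower and 1.95% called 2-fold higher. The median log2 fold change of the 22 was 0.75, and that of all tested genes was -0.02. The 9 called genes were CTGF, CYR61, ANKRD1 and AMOTL2 from the 10 genes, and F3, NT5E, CRIM1, IGFBP3 and GADD45A. F3, the tissue factor that starts coagulation, rose from 7.46 ± 0.15 at P0 to 9.41 ± 0.06 at P3 (1.96, adjusted p = 4.4e-19, limma). NT5E, the ectonucleotidase CD73, rose from 5.58 ± 0.05 to 7.32 ± 0.06 (1.74, adjusted p = 5.4e-22, limma). At P7 against P3, 17 were lower and 1 higher, beside 28% and 30.3% of all tested genes, and 6 of them were called 2-fold lower, beside 0.845%. Their median was -0.60, beside 0.01. Of the 22 genes, 11 were higher at P3 than at each other phase, beside 10.3% of all tested genes, and 0 were at P7, beside 7.43%.

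At P15 against P0, genes of the list lay on both sides: 8 were higher, 11 lower and 3 did not pass, beside 45.3% of all tested genes higher and 40.9% lower. The share that passed, 86.4%, was near the 86.2% of all tested genes. Of the 22, 5 were called 2-fold higher and 6 2-fold lower, beside 12.2% and 11.5% of all tested genes (23.6% together), and the median was -0.15 beside 0.04. IGFBP3, a binding protein of insulin-like growth factors, rose most (1.13 ± 0.25 at P0, 4.5 ± 0.41 at P15, log2 fold change 3.37, adjusted p = 1.7e-16, limma). GADD45A, a gene of the response to DNA damage, followed with 5.74 ± 0.12 and 8.74 ± 0.11 (3.00, adjusted p = 4.3e-22, limma). F3 fell most, to 4.06 ± 0.11 at P15 (-3.40, adjusted p = 4.8e-25, limma), before ANKRD1, whose fall is given above. TGFB2, a transforming growth factor, was 4.42 ± 0.13 at P0 and 1.65 ± 0.13 at P15 (-2.77, adjusted p = 1.3e-19, limma). In the same P15 libraries the fibroblast markers COL1A1 and COL3A1 were at 24 and 21.8 CPM (5.01 and 0 CPM at P0), and the part of these markers in the P15 differences was not tested.

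**Figure D4:**
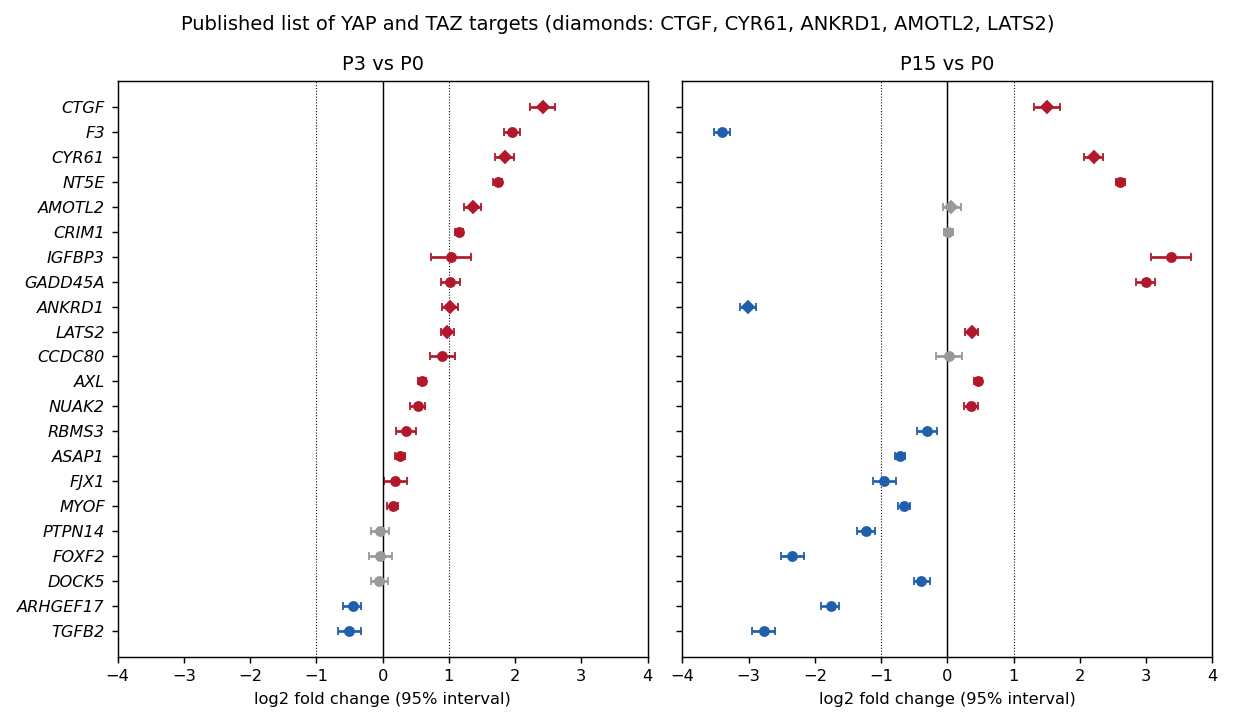
Log2 fold change (horizontal axis, with its 95% interval) of the 22 listed targets at P3 (left) and P15 (right) against P0, ordered by the change at P3, with red for higher, blue for lower and grey for an adjusted p of 0.05 or more. At P3 the 9 genes called 2-fold all lay to the right of 0, and at P15 the called genes lay on both sides, from F3 at -3.40 to IGFBP3 at 3.37.

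Of 14 tested genes of the kinase cassette (STK3, STK4, the LATS, MOB1, TAOK and MAP4K genes and the scaffold SAV1), 7 were higher and 6 lower at P15 than at P0, and the share that passed, 92.9%, was near the 86.2% of all tested genes (45.3% higher and 40.9% lower). None of the 14 was called 2-fold, beside 23.6% of all tested genes, and the median was 0.07 beside 0.04. The widest changes were those of MAP4K4, which rose by 0.86 (adjusted p = 5.6e-16, limma), and MAP4K3, which fell by 0.83 (adjusted p = 1.8e-13, limma). Both encode kinases that can activate LATS in parallel to STK3 and STK4. At P3 against P0, 9 of the 14 were higher and 1 lower, beside 31.4% and 37.3% of all tested genes, with LATS2 the widest.

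Of the 13 scaffolds and YAP-binding proteins, 6 were higher and 5 lower at P15 than at P0, beside 45.3% and 40.9% of all tested genes. Of these, 5 were called 2-fold (38.5% of the 13), beside 23.6% of all tested genes. The protocadherins FAT4 (2.45 ± 0.23 at P0, 4.26 ± 0.14 at P15) and FAT1 (7.02 ± 0.26 and 8.62 ± 0.16), receptors upstream of the pathway, rose by 1.81 and 1.6 (adjusted p = 1.8e-13 and 1.7e-13, limma), as did AMOT by 1.59 (adjusted p = 6.5e-15, limma). AMOTL1 fell by 2.53 (adjusted p = 9.5e-25, limma) and PTPN14, a phosphatase that binds YAP, by 1.23 (adjusted p = 1.1e-14, limma). NF2, which encodes merlin and recruits LATS to the membrane, fell by 0.81 (adjusted p = 4.4e-16, limma).

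CTGF, CYR61 and AMOTL2 also varied together among the libraries of a phase. P7 replicate 3 lay above the mean of its phase by 0.21 for CTGF, 0.21 for CYR61 and 0.23 for AMOTL2, and P15 replicate 3 by 0.27, 0.21 and 0.22. In the other 14 libraries the deviations of AMOTL2 were between -0.14 and 0.05. P7 replicate 3 and P15 replicate 3 share their number in the titles too, where it is 4. Replicate 3 deviated by 0.07 for CTGF and -0.02 for CYR61 at P0, and by 0.17 and 0.07 at P3, while AMOTL2 lay close to its mean in both. Over the 16 libraries, after subtraction of the phase means, Pearson's r was 0.91 for CTGF with CYR61, 0.86 for CYR61 with AMOTL2 and 0.71 for CTGF with AMOTL2. It was 0.31 for CYR61 with ANKRD1 and -0.04 for CTGF with LATS2. Other pairs of the 10 genes also reached wide values: 0.70 for YAP1 with TEAD1, 0.63 for WWTR1 with TEAD1 and -0.64 for YAP1 with TEAD4. How often pairs of all tested genes reach such values was not computed. These are descriptions over 16 libraries in which each library gives all genes at once and the 4 deviations of a phase sum to 0. Without these 2 libraries, the differences between P15 and P7 were 0.81 for CTGF, 1.92 for CYR61 and -0.45 for AMOTL2, all 3 past the threshold.

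**Figure D5:**
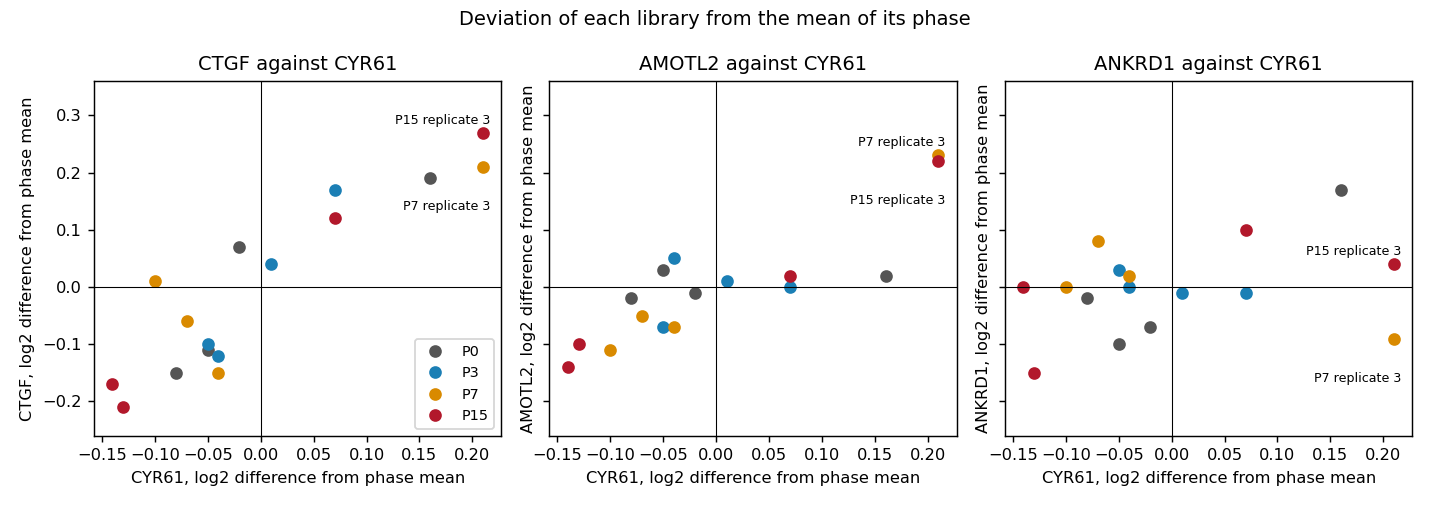
Deviation of each library from the mean of its phase (log2 difference), with CYR61 on the horizontal and CTGF, AMOTL2 or ANKRD1 on the vertical axis, 1 point per library, coloured by phase. P7 replicate 3 and P15 replicate 3 lay at the upper right for CTGF and AMOTL2, but at -0.09 and 0.04 for ANKRD1.

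The genes with the most similar course were sought by Pearson's r of the log2 values over the 16 libraries among the 13239 other tested genes, as a description in which libraries of 1 phase lie together and weigh as 1 cluster. For CTGF these were DUSP1 (0.987), HBEGF (0.983) and KLF5 (0.977), and for CYR61 PPP2R2C (0.990), CFLAR (0.987) and MYO5B (0.985). ANKRD1 was nearest to TMEM98 (0.989), DDX27 (0.989) and EIF2S1 (0.984), and AMOTL2 to CORO1C (0.984), PHF19 (0.982) and CRIM1 (0.980), itself a listed target. YAP1 was nearest to ITGA2 (0.996), IL7R (0.996) and SLC2A3 (0.994), with 592 genes above 0.95. WWTR1 was nearest to FOXO1 (0.978), TECPR2 (0.976) and LTBP2 (0.969), TEAD1 to KATNAL1 (0.988), DGKH (0.988) and CLSPN (0.986), and TEAD4 to GRAMD1A (0.969), KRT18 (0.966) and KXD1 (0.960). LATS2 was nearest to PI3 (0.980), TGM2 (0.976) and HPSE (0.975), and AJUBA to SAMD10 (0.988), HYLS1 (0.987) and PIK3CD (0.984). Over the 12 libraries of P0, P3 and P7 alone, CTGF was nearest to HBEGF (0.995), CYR61 to IL6 (0.997) and ANKRD1 to CXCL5 (0.996), and of the 3 nearest genes named above, those still among the 3 nearest were ITGA2 for YAP1, GRAMD1A for TEAD4 and HBEGF for CTGF. The other 7 genes kept none of theirs among the 3 nearest. Over these 12 libraries, between 0 (TEAD4) and 352 (WWTR1) genes were above 0.95, so that the loss of such a rank does not show a low r.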

How the data were processed

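RNA-sequencing values of 16 libraries were used, 4 per phase. Reads were aligned by the authors with STAR 2.6.1a to GRCh38 and counted per gene with featureCounts. The values they deposited are log2(CPM + 1) with 2 decimals. Their methods name quantile normalization and median centring, which these deposited log2 values do not carry. The annotation release, the strand setting and the treatment of reads that fit several genes are not given in the sources used here. The table holds 27 symbols that were turned into dates and 2 repeated names.

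The tests used limma 3.58.1 (R 4.3.3) on these values. Each phase had its own coefficient, the 16 libraries shared 1 spread, and the variance prior followed a trend. The p-values of the 13249 genes that averaged over 1 CPM were adjusted by Benjamini-Hochberg. The procedure was tested on simulated data. Other steps used Python 3.11.15 with numpy 2.4.6, pandas 2.3.3 and matplotlib 3.10.9. Coordinates and exon lengths are those of GENCODE 44, and promoters those of RefSeq. The authors' annotation may differ. The genes and lists were chosen with earlier results of these data known. Named genes are the 10 genes, their paralogues, the 2 genes of each list that rose and fell most between P15 and P0 among those called, and the 3 genes nearest to each of the 10. MAP4K3, MAP4K4, NF2, VGLL4, NT5E and the markers are named beside these.

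Libraries are numbered as in their descriptions, and the number in the title is another one for 14 of the 16. Over all tested genes, libraries that share a number deviated little together, so no block was used. For CTGF, however, replicate 3 lay above its phase mean in every phase. Alternatives covered 2 filters, pseudocounts of 0.1 or 5, 2 scalings, a block, no trend, fits of 2 phases only, calls without the fold threshold, the treat test of limma against 0.5 and each library left out.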

Additional observations from a re-analysis of the deposited data

Results flagged for a closer look

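In 18 genes (the 10 genes, their paralogues and the tested CCN gene NOV), each of the 72 groups of 4 libraries was checked for a library whose gap to its nearest neighbour, as a share of the range of its group, exceeded Dixon's critical value for 4 values. Chance alone would give about 1 in 20, or 3.6 groups, and 4 were found. YAP1 in P3 replicate 2 was low (8.30, with the next library at 8.37, a share of 0.87). AJUBA in P0 replicate 1 was low (6.82 and 6.92, a share of 0.83). LIMD1 in P3 replicate 4 was high (5.69 and 5.59, a share of 0.91), and in P15 replicate 4 it was low (5.82 and 5.94, a share of 0.86). No calls of YAP1 changed without P3 replicate 2, and none of AJUBA without P0 replicate 1.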

How the results depend on the processing

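Of 1130 values of the 10 genes under an alternative, 1110 kept their direction and their side of an adjusted p of 0.05, 14 lost it, 4 gained it and 2 turned. The turned value was AMOTL2 between P15 and P0, -0.01 to 0.11 when single libraries were left out, the lowest without P15 replicate 3, and -0.01 without P7 replicate 3 and P15 replicate 3, the latter left out together after the data were seen. The values that no longer passed were those of TEAD4 and AJUBA at P3 against P0 and of TEAD4 at P7 against P3, and those that newly passed were of WWTR1, at P15 against P7 and, after quantile normalization, at P15 against P3 (0.11, adjusted p = 0.0097, limma).

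Without a fold threshold, 10 of the 10 genes passed for P3 against P0, 9 for P7 against P3, 8 for P15 against P7 and 9 for P15 against P0, P7 against P0 and P15 against P3, and of all genes 9100, 7713, 11452, 11423, 8231 and 11557, in the same order of comparisons. For P15 against P0, 13 genes of the kinase cassette, 11 of the scaffolds, 6 of the TEAD and VGLL genes and 19 of the target list then passed. With the treat test, all genes gave 1366, 530, 5858, 5466, 1004 and 5990, the 10 genes 4 for P15 against P7, 5 for P15 against P0 and 6 for P15 against P3, and the kinase cassette 4. With a pseudocount of 5, all genes gave 290, 106, 2166, 1976, 203 and 2321, the 10 genes 1 for P15 against P7 and the TEAD and VGLL genes 1. With a pseudocount of 0.1, all genes gave 939 for P3 against P0, 445 for P7 against P3 and 711 for P7 against P0, and with 1 CPM required in all 16 libraries, which tests fewer genes, 381, 139 and 263. With libraries shifted to the same median, the TEAD and VGLL genes gave 1, and without single libraries 1 to 2. Leaving out single libraries gave 3 to 4 of the 10 genes for P3 against P0 and for P15 against P3, and moved no other count of the 10 genes. For P3 against P0, ANKRD1 lost the 2-fold call without P0 replicate 3 or 4, with a pseudocount of 5 and after quantile normalization, while LATS2 gained it without P0 replicate 4 (1.02, so that 4 genes stayed called) and with a pseudocount of 0.1. For P15 against P3, CTGF gained it without P15 replicate 3. Where no cause is named, the cause was not tested.

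Across genes, deviations of libraries that share a replicate number had correlations of -0.15 to 0.22 by the descriptions and -0.12 to 0.22 by the titles. In each, 1 of 24 pairs was above 0.1. Over all genes the numbers thus showed little pairing, but CTGF was above its phase mean in replicate 3 of every phase. With the replicate number as a block, 592, 244, 3377, 3129, 447 and 3592 genes were called, as without it. Each number occurs once per phase, so a block cannot alter a fold change, and equal counts do not show whether libraries are paired. TEAD4 at P3 against P0 no longer passed with the number of the titles (0.10, adjusted p = 0.062, limma). No scaling moved the median of all genes by more than 0.1. Of the 10 genes, ANKRD1 at P15 (5.82 CPM) was the level with the most counting error, and 4 libraries per phase and a single selected line limit all of them.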

Other observations

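The libraries that stood high for CTGF, CYR61 and AMOTL2 within their phase were also compared with the other tested genes, by Pearson's r with the mean deviation of these 3 genes over the 16 libraries. The nearest genes, chosen after their values were seen, were NFKBIZ (0.90), TNF (0.90), NFKBIA (0.89), CXCL2 (0.89) and CXCL1 (0.88), genes known as early targets of NF-kB signalling. The next were IL6, CSF3 and DDX39A (0.87 each), THBS1 (0.86), PRR16 (0.85) and SRSF5 (0.85). P7 replicate 3 and P15 replicate 3 had the largest deviations and weigh most in these values. A link to NF-kB signalling was not tested. These values are descriptions without a test, and each library gives all of these genes at once.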
